A study of Mus musculus with 5 samples.

Results

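The epithelial structural genes described here are 4 simple keratins (Krt7, Krt8, Krt18 and Krt19), 2 classical cadherins (Cdh1 and Cdh3), 3 claudins (Cldn4, Cldn6 and Cldn7) and the tetraspanin Tspan8, 10 of the 18193 genes with a probe set of their own on the arrays. They were chosen by name, and all 17 probe sets that the platform annotation assigns to these symbols alone were used. Total RNA of J1 and E14, established mouse embryonic stem cell lines, was hybridised to 5 Affymetrix arrays, 1 sample on each. J1 cells, grown on mouse embryonic fibroblast feeders, received an siRNA against Tet1 (J1 Tet1 siRNA) or a control siRNA, and were collected 4 days later. E14 cells, grown without feeders, received lentivirus with Tet1 shRNA3387, Tet1 shRNA2863 or a scramble shRNA, and were collected after 4 days in puromycin. Each group is 1 array. The J1 RNA includes that of any feeder cells collected along with the stem cells. Line, feeders and way of depletion differ together between J1 and E14 and cannot be told apart.

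Keratins form intermediate filaments as pairs of a type I and a type II chain, and Krt8 (type II) with Krt18 (type I) is the pair of simple, one-layered epithelia and the first keratin pair of the mouse embryo, best known from trophectoderm. Cadherins bind cells to each other across the gap and are anchored to actin by catenins, while claudins form the strands of tight junctions, which seal that gap. Embryonic stem cells grow as compact colonies held together by E-cadherin, the product of Cdh1. Tet1 oxidizes methylated cytosine in the sequence CG (a CpG site) and is targeted to CpG-rich promoters.

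CpG sites are acted on by the depleted enzyme where they are methylated, and the arrays do not measure methylation. The start regions of the 3 keratin genes with the widest range over the arrays are shown with these sites marked. Each runs 5′ to 3′ from 250 bases before to 50 bases after the gene's start, from RefSeq on build GRCm38.p6, with CpG sites in capitals; Krt7 lies at chr15:101412153-101412452 on the plus strand, Krt8 at chr15:102004293-102004592 on the minus strand and Krt18 at chr15:102027966-102028265 on the plus strand.
Krt7: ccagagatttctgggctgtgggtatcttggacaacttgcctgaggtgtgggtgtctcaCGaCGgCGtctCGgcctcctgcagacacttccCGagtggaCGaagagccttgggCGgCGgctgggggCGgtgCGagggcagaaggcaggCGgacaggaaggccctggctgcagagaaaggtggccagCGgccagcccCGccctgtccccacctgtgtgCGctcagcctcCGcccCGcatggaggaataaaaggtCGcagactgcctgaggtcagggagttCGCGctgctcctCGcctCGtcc
Krt8: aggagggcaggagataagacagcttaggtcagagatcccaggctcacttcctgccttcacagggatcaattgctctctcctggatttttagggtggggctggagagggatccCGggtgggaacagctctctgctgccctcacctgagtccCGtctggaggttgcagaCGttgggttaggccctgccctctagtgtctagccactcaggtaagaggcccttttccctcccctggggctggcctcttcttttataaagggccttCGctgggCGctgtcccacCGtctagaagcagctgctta
Krt18: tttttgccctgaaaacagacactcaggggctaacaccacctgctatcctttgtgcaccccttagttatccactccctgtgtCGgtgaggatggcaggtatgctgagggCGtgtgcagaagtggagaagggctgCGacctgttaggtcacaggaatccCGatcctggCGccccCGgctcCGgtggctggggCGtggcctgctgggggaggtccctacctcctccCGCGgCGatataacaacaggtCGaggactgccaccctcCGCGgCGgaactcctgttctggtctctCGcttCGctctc

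The Krt7 window holds 21 CpG sites and the Krt18 window 17, against a median of 7 over 32851 promoter windows of this length. Windows with at least as many make up 24.8% of all for Krt7 and 31.4% for Krt18. The Krt8 window, whose gene is the filament partner of Krt18, holds 6 CpG sites, and 56.4% of all windows hold at least as many. Promoter windows were matched for 7 of the 10 genes. Those of Cldn4, Cldn6 and Tspan8 hold 9, 10 and 5 CpG sites, and the 2 windows of Cldn7 hold 7 and 17. The letters TATAAA, searched on both strands, occur in the Krt8 window as 2 overlapping matches on opposite strands, in 0 of the windows of the other 6 genes, and in 13.6% of all windows. The E-box CAGGTG, a motif bound by Snail and Zeb repressors, occurs on either strand in the Krt7, Krt8 and Krt18 windows (1 match each), in those of Cldn4 and Cldn6 (2 each), in 1 of the 2 of Cldn7, not in that of Tspan8, and in 20.2% of all windows. GCCNNNGGC, the palindrome of AP-2 factors, has 2 matches in Krt7 and 1 in Krt18, 0 in the other windows, and is present in 16.6% of all. These are letter matches in a short window and are not evidence of binding.

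Values are log2 probe set summaries, and a difference is the depleted array minus the control array of its own line unless another pair is named. A gene is represented by its brightest probe set, and a gene was kept if it lay above the 40th percentile of all probe sets (the filter level, 3.03 to 3.12) on 1 or more arrays, which left 13619. All 10 genes passed through that probe set, and 13 of their 17 probe sets passed. With 1 array in a group, differences between arrays have no error and were described by size, and p-values come only from limma fits over the 5 arrays. Those p-values measure the spread between these arrays, which mixes reagents, lines and technical variation.

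Tet1 was lower on each array labelled as depleted, with differences of -2.54 in J1, -1.71 with shRNA3387 and -0.89 with shRNA2863 at its brightest probe set. All 12 listed stem cell markers were kept, and Nanog read 9.71 and 10.59 with J1 Tet1 siRNA and J1 control siRNA, and 10.43, 10.55 and 10.53 with shRNA3387, shRNA2863 and scramble. Of 28 fibroblast markers on the array, 22 were kept. Their summed linear level was 3082 and 2930 on the J1 Tet1 siRNA and control arrays, against 1913, 2673 and 2501 with shRNA3387, shRNA2863 and scramble. Col1a2 was the marker that differed most between the control arrays (5.95 and 6.24 in J1, 3.59 to 3.62 in E14), while Postn, Dcn and Fap lay below the filter level on all 5 arrays. The 3′ minus 5′ signal of the Gapdh control probe sets, a measure of RNA quality, was -0.58 and -0.33 in J1 Tet1 siRNA and control. It ran from -0.46 to -0.42 over the E14 arrays. For Actb it was 0.31 and 0.63 on the same J1 arrays and ran from 0.41 to 0.54 in E14. J1 Tet1 siRNA was thus lowest and J1 control siRNA highest by both controls, and the part of this in the J1 differences was not tested.

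The keratins were the most variable of these genes and fell into a shared order of arrays. Each of the 4 was highest in J1 Tet1 siRNA, next in J1 control siRNA, and lowest with E14 shRNA3387. Krt8, the type II chain of the simple epithelial pair, read 12.25 with Tet1 siRNA and 11.84 with control siRNA in J1, and 9.21 with shRNA3387, 10.59 with shRNA2863 and 9.92 with scramble in E14. Krt18, its type I partner, read 12.46 and 11.75 on the same J1 arrays, and 9.24, 10.56 and 9.83 on the same E14 arrays. For both genes the J1 arrays lay above all E14 arrays, and the hairpin arrays lay on opposite sides of the scramble array.

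Krt7, a type II keratin of ductal and glandular epithelia, read 7.75 with Tet1 siRNA and 7.29 with control siRNA in J1, and 3.69, 4.80 and 3.81 with shRNA3387, shRNA2863 and scramble in E14. The shRNA3387 and scramble values of Krt7 lie within 1 log2 unit of the filter level, so its size of difference against them is limited by background signal. Krt19, a type I keratin with a very short tail, read 9.70 and 9.38 with Tet1 siRNA and control siRNA in J1, and 6.93, 7.72 and 7.84 with shRNA3387, shRNA2863 and scramble in E14. Unlike the other keratins, Krt19 was not higher with shRNA2863 than with scramble. Ranges over the 5 arrays were 4.06 for Krt7, 3.22 for Krt18, 3.04 for Krt8 and 2.77 for Krt19, with a median of 0.54 over all kept genes. A range as wide as that of Krt19 was found in 0.764% of kept genes, and one as wide as that of Krt7 in 0.125%.

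**Figure D1:**
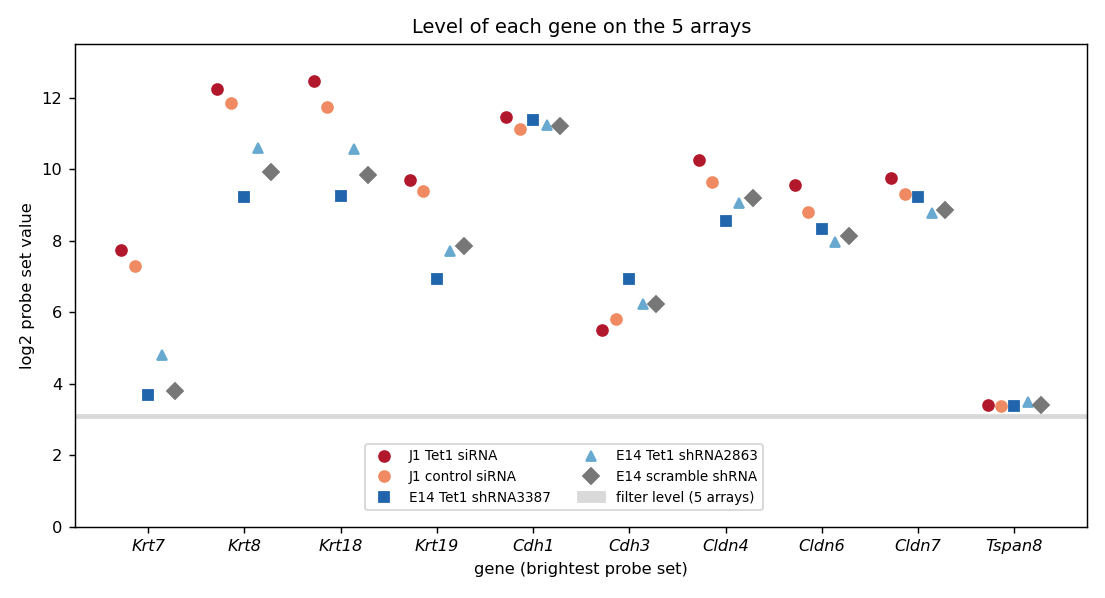
Log2 value of the brightest probe set of each gene (x axis) on each of the 5 arrays (y axis), 1 point per array, with the filter level of the 5 arrays as a grey band. The J1 points of Krt7, Krt8, Krt18 and Krt19 lie above their E14 points, Cdh1 spans 0.34, and Tspan8 lies just above the filter level at 3.39 to 3.49.

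Cdh1, which encodes E-cadherin, was nearly level. It read 11.45 with Tet1 siRNA and 11.11 with control siRNA in J1, and 11.37, 11.23 and 11.21 with shRNA3387, shRNA2863 and scramble in E14, so that the lines overlapped and the whole range was 0.34. A range at least that wide was found in 71.3% of kept genes. Cdh3, which encodes P-cadherin, the cadherin first described in placenta, had a different order. Its brightest probe set read 5.51 and 5.82 in J1 Tet1 siRNA and control, and 6.94, 6.23 and 6.23 with shRNA3387, shRNA2863 and scramble, and was thus lower on both J1 arrays than on any E14 array and highest with shRNA3387. The second Cdh3 probe set exceeded the filter level only on the scramble array (3.97, against 2.96 to 3.07 on the other 4) and did not repeat the order of the first.

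The claudins were higher in J1, by smaller amounts than the keratins. Cldn4, which like Cldn6 belongs to the claudins that bind a clostridial enterotoxin, read 10.26 with Tet1 siRNA and 9.65 with control siRNA in J1, and 8.54, 9.05 and 9.19 with shRNA3387, shRNA2863 and scramble in E14. Cldn6, a claudin of embryonic epithelia and pluripotent cells, read 9.57 and 8.79 in J1, and 8.33, 7.96 and 8.12 on the same E14 arrays. Cldn7, a claudin found widely in epithelia, read 9.76 and 9.30 in J1, and 9.23, 8.77 and 8.86 in E14. The J1 arrays lay above the E14 arrays for all 3 claudins. For Cldn7 the gap was narrow, 0.07 between the lowest J1 and the highest E14 array by these values. Among the hairpins, Cldn4 had its lowest value with shRNA3387, as the keratins did, while Cldn6 and Cldn7 had their E14 maximum there.

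Tspan8, a tetraspanin of gut and other epithelial surfaces, read 3.40 and 3.39 in J1 Tet1 siRNA and control, and 3.39, 3.49 and 3.41 with shRNA3387, shRNA2863 and scramble at its brightest probe set. Its 4 other probe sets lay below the filter level on all 5 arrays, with values from 2.51 to 3.04. Signal this close to the filter level is hard to tell from background, and the whole range of the brightest probe set was 0.10.

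With Tet1 siRNA in J1, 9 of the 10 genes were higher than with control siRNA, where 45.5% of all kept genes were higher. The differences were small. At least 2-fold was reached by 0 of the 10 (1.57% of all kept genes), and at least 1.5-fold higher by 3 (2.91% of all), namely Cldn6 (0.78), Krt18 (0.71) and Cldn4 (0.61). The other differences were 0.46 for Krt7, 0.46 for Cldn7, 0.41 for Krt8, 0.34 for Cdh1, 0.32 for Krt19, 0.01 for Tspan8 and -0.31 for Cdh3. The median over the 10 genes was 0.44, beside -0.01 over all kept genes. The 3 Krt8 probe sets gave 0.41, 0.57 and 0.80, from the brightest to the dimmest. The dimmer 2 carry the suffix x_at, which on this platform marks probes that may also match other transcripts.

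In E14 the hairpins have the scramble array in common. With shRNA3387, 4 of the 10 genes were at least 1.5-fold lower (3.36% of all kept genes), namely Krt19 (-0.91), Krt8 (-0.71), Cldn4 (-0.65) and Krt18 (-0.59), and Cdh3 was 1.64-fold higher (5.39% of all were at least 1.5-fold higher). The Cdh3 difference was 0.71 at its brightest probe set, -0.92 at the other and -0.105 with the median over both. Krt7 differed by -0.12, Cldn7 by 0.37, Cldn6 by 0.21, Cdh1 by 0.16 and Tspan8 by -0.02. With shRNA2863, 3 of the 10 were at least 1.5-fold higher (3.63% of all), namely Krt7 (0.99), Krt18 (0.73) and Krt8 (0.67), and 0 were 1.5-fold lower (3.27% of all). Krt19 differed by -0.12, and Cdh1, Cdh3 and the claudins by between -0.16 and 0.02. No gene of the 10 was 2-fold different with shRNA3387 (1.81% of all) or with shRNA2863 (1.20% of all), although Krt7 with shRNA2863 reached 1.99-fold.

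**Figure D2:**
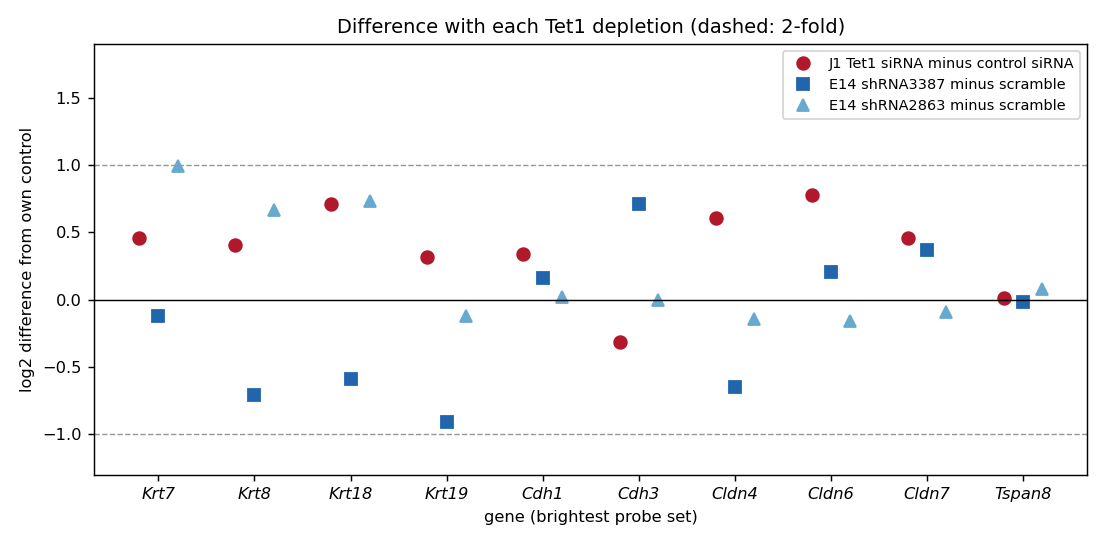
Log2 difference of each Tet1-depleted array from the control array of its own line (y axis) for the brightest probe set of each gene (x axis), 1 point per depletion, with dashed lines at 2-fold. Krt8 and Krt18 are above 0 with J1 Tet1 siRNA and shRNA2863 and below 0 with shRNA3387, and all points lie within 2-fold.

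Krt8 and Krt18 thus differed from scramble in opposite directions with the 2 hairpins. Both were at least 1.5-fold lower with shRNA3387 and at least 1.5-fold higher with shRNA2863, a combination found in 4 of the 13619 kept genes (0.0294%). This combination was chosen after the values were seen. The other genes with it were Acta1, the skeletal muscle actin (-1.59 with shRNA3387 and 0.97 with shRNA2863), and Cryab, a small heat shock protein that binds intermediate filaments (-1.22 and 0.69). All 3 Krt8 probe sets had it in sign, with -0.71, -0.83 and -0.73 with shRNA3387 and 0.67, 0.56 and 0.58 with shRNA2863.

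Set directly against each other, the hairpin arrays do not involve the scramble array. Relative to shRNA2863, 3 of the 10 genes were lower by at least 2-fold with shRNA3387, where 0.345% of all kept genes were, and 0 were 2-fold higher (0.661% of all). Krt8 was 2.60-fold lower, Krt18 2.50-fold and Krt7 2.16-fold, at ranks 12, 14 and 26 from the lower end of 13619 genes. Krt19 was 1.73-fold lower and Cldn4 1.42-fold lower, while Cdh3 was 1.64-fold higher, Cldn7 1.38-fold and Cldn6 1.29-fold. Tet1 itself was lower with shRNA3387 than with shRNA2863, by -0.82 at its brightest probe set. Of 22 fibroblast markers, 21 were also lower with shRNA3387 than with shRNA2863, as were 57.8% of all kept genes. Their median difference was -0.09, and the largest in size was -1.67, for the smooth muscle actin Acta2. E14 cells had no feeders, and the part of these genes in the keratin difference was not tested.

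In the limma fit over both lines, with line and Tet1 depletion as terms, 0 of the 10 genes and 0 of all 13619 passed for Tet1 depletion (0% called; lowest adjusted p = 0.7), and 0 of the 10 had an unadjusted p under 0.05, against 936 of all genes. Tet1, the depleted gene, did not pass either, at -1.83 ± 0.425 (SE, limma adjusted p = 0.7). A gene that did not pass is therefore not shown to be unaffected. For Krt8 and Krt18 the estimates were 0.16 ± 0.48 and 0.34 ± 0.48 (SE, 3 depleted and 2 control arrays). Those of Krt7 and Krt19 were 0.45 ± 0.38 and -0.16 ± 0.35. Cdh1 had the smallest error of the expressed genes, at 0.20 ± 0.09 (limma adjusted p = 0.718), and Cldn6 and Cldn7 had 0.35 ± 0.24 and 0.28 ± 0.19. For Cldn4 the estimate was 0.04 ± 0.32 and for Cdh3 0.07 ± 0.31. With 1 array left out, the estimate ran from 0.06 (without shRNA2863) to 0.72 (without shRNA3387) for Krt18 and from 0.17 to 0.725 for Krt7 without the same arrays. Without either J1 array the estimate is by construction the mean hairpin effect in E14: 0.025 for Cldn6, 0.14 for Cldn7 and 0.09 for Cdh1. Without scramble it is by construction the J1 difference given above: 0.78, 0.46 and 0.34. In a fit of 4 means, the mean effect of both hairpins in E14 was -0.02 ± 0.81 for Krt8 and 0.07 ± 0.77 for Krt18, with errors set by the disagreement of the hairpin arrays. In that fit 0 of 13619 genes passed (0% called; 1500 at an unadjusted p under 0.05, of which 0 were among the 10). The difference of the effect, J1 minus E14, was largest for Cldn4 at 1.005 ± 0.47 and was 0.43 ± 1.24 for Krt8. It passed for 0 of the 10 and 0 of all genes (0% called; 1887 of all genes and 0 of the 10 at an unadjusted p under 0.05).

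The keratins differed more between the control arrays of J1 and E14 than with any depletion. On the control arrays alone, Krt7 was 11.2-fold higher in J1, Krt8 and Krt18 were each 3.78-fold higher and Krt19 was 2.91-fold higher. These 4 of the 10 genes were at least 2-fold higher in J1, where 4.84% of all kept genes were, and 0 were 2-fold lower (3.52% of all). Krt7 ranked 7 among 13619 genes for this difference, and Krt8 and Krt18 shared rank 66. Cldn6 was 1.59-fold higher, Cldn4 1.38-fold and Cldn7 1.36-fold, while Cdh1 differed by -0.10, Cdh3 by -0.41 and Tspan8 by -0.02. Over all arrays, 7 of the 10 genes had both J1 arrays above all 3 E14 arrays (21.8% of all kept genes), and Cdh3 had both below (27.1% of all).

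The line term of the limma fit passed for 2 of the 10 genes, both higher in J1, where 14.2% of all kept genes passed in either direction and 7.80% as higher in J1. Krt7 was higher by 3.49 ± 0.38 (SE, 2 J1 and 3 E14 arrays; limma adjusted p = 0.0236) and Krt19 by 2.02 ± 0.35 (limma adjusted p = 0.0442). Krt18 and Krt8 had estimates of like size, 2.29 ± 0.48 and 2.17 ± 0.48, and wider errors, with limma adjusted p of 0.06 and 0.0667. Cldn6 had 1.10 ± 0.24 (0.0662), Cldn4 1.03 ± 0.32 (0.121), Cldn7 0.62 ± 0.19 (0.12) and Cdh3 -0.79 ± 0.31 (0.186), the limma adjusted p in parentheses. Cdh1, at 0.04 ± 0.09, differed by less than its error. With any 1 of the 5 arrays left out, 0 of all genes passed. The adjusted p then ran from 0.0876 to 0.152 for Krt7 and from 0.103 to 0.243 for Krt19, while their estimates ran from 3.22 to 3.77 and from 1.54 to 2.38. The line estimates ran from 0.46 to 1.465 for Cldn4, from 0.67 to 1.425 for Cldn6 and from 0.44 to 0.76 for Cldn7, each lowest without the J1 Tet1 siRNA array and highest without either control array. That of Cdh3 was nearest 0, at -0.41, without the J1 Tet1 siRNA array and reached -1.075 without either control array. After quantile normalization Krt8 and Krt18 passed as well (limma adjusted p = 0.0488 and 0.0442), where 2383 of 13619 genes did. With the filter at the 60th percentile Krt8, Krt18 and Cldn6 passed (limma adjusted p = 0.0356, 0.0314 and 0.0373). With that filter 2598 of 10387 genes did.

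**Figure D3:**
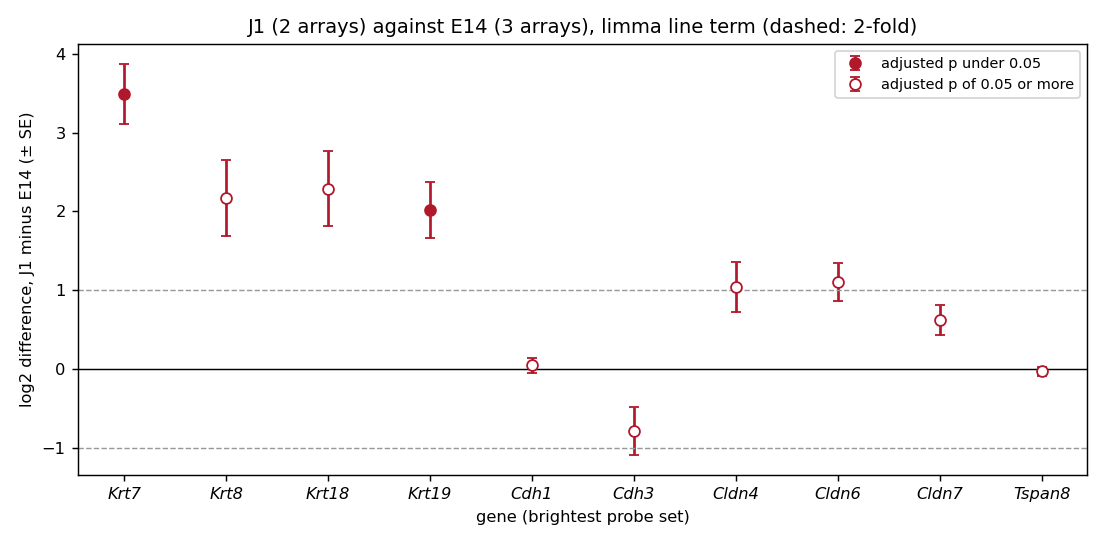
Log2 difference of J1 (2 arrays) minus E14 (3 arrays) for each gene from the limma line term, with bars of 1 SE and dashed lines at 2-fold, filled where the adjusted p is under 0.05. Krt7 and Krt19 are filled, Krt8 and Krt18 are of like size to Krt19 with wider bars, and Cdh1 and Tspan8 sit near 0.

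Markers of other cells that could accompany these genes also differed between the lines. Among fibroblast markers 4 of 22 were higher in J1 by the same test and 0 lower, where 7.80% and 6.37% of all kept genes were, led by Col1a2 (2.47 ± 0.10 SE, limma adjusted p = 0.0129). Between the control arrays 8 of the 22 were higher in J1 and 14 lower, where 42.9% and 56.2% of all kept genes were. The median of the 22 was -0.025, and Col1a1 and Acta2 differed by -0.22 and -0.54. Of the kept trophectoderm markers, 6 of 13 were higher in J1 and 0 lower, among them Ascl2, a factor of placental trophoblast (1.99 ± 0.32 SE, limma adjusted p = 0.0385), and the imprinted genes Igf2 (2.74 ± 0.44) and Peg10 (2.29 ± 0.41). Their summed level was 3297 and 2137 in J1 Tet1 siRNA and control, against 1513, 1763 and 1721 with shRNA3387, shRNA2863 and scramble. Of 6 trophectoderm regulators, Cdx2, Gata3 and Elf5 lay below the filter level on all 5 arrays, at 2.17 to 2.80, while Tfap2c, Hand1 and Eomes lay above it on all 5. Tfap2c read 9.13 and 8.66 in J1 Tet1 siRNA and control, and 8.65, 8.74 and 8.39 with shRNA3387, shRNA2863 and scramble. Hand1 was higher on both J1 arrays (5.11 and 4.03, against 3.89, 3.18 and 3.61), and its E14 values lie close to the filter level. Eomes was lower on both J1 arrays (5.75 and 5.84, against 7.14, 7.10 and 6.43). Primitive endoderm markers gave 2 of 11 higher and 0 lower by the line term, the collagen IV genes Col4a1 (1.85 ± 0.14) and Col4a2 (2.19 ± 0.20), with summed levels of 1553 and 1239 in J1 Tet1 siRNA and control, against 1052, 860 and 984 with shRNA3387, shRNA2863 and scramble. Between the control arrays 4 of the 11 were higher in J1 and 6 lower, beside 42.9% and 56.2% of all kept genes. The median of the 11 was -0.02, and Lama1 differed by -1.12. Fewer cells of a type and less RNA per cell cannot be told apart in these bulk samples, and the part of any of these cells in the keratin levels was not tested.

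Within J1, the trophectoderm list also lay higher with Tet1 siRNA than with control siRNA (10 of 13 kept markers, median 0.48), where 45.5% of all kept genes were higher. Plac1 led it with a difference of 2.70. Hand1 read 5.11 with Tet1 siRNA against 4.03 with control siRNA, Tfap2c 9.13 against 8.66, and Cdx2, below the filter level, 2.67 against 2.66. All 12 stem cell markers were lower there (50.4% of all kept genes were), with a summed level of 23740 with Tet1 siRNA against 30625 with control siRNA. The fibroblast list had a median of 0.01 on these arrays, with 12 higher and 8 lower. With the hairpins the trophectoderm medians were -0.04 for shRNA3387 and 0.08 for shRNA2863. The part of other cell types in the J1 keratin and claudin values was not tested.

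Krt8 and Krt18 were each other's nearest gene by profile. Likeness was the Euclidean distance between profiles over the 5 arrays after each was centred on its mean, and that of Krt8 and Krt18 was 0.249 log2 units, with equal differences of 1.92 between the control arrays. The next nearest to Krt18 were Anxa1, a calcium-dependent membrane-binding protein (0.531), and Plin2, which coats lipid droplets (0.627). For Krt8 they were the receptor tyrosine kinase Axl (0.562) and Anxa1 (0.581). Anxa1 read 11.35 and 10.40 in J1 Tet1 siRNA and control, and 8.23, 9.20 and 9.11 with shRNA3387, shRNA2863 and scramble. The nearest to Krt7 were farther off, with 3830417A13Rik at 0.79, the imprinted zinc finger gene Plagl1 at 0.913 and Cryab at 0.953. A profile of 5 arrays is short, and J1 against E14 makes up most of it.

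**Figure D4:**
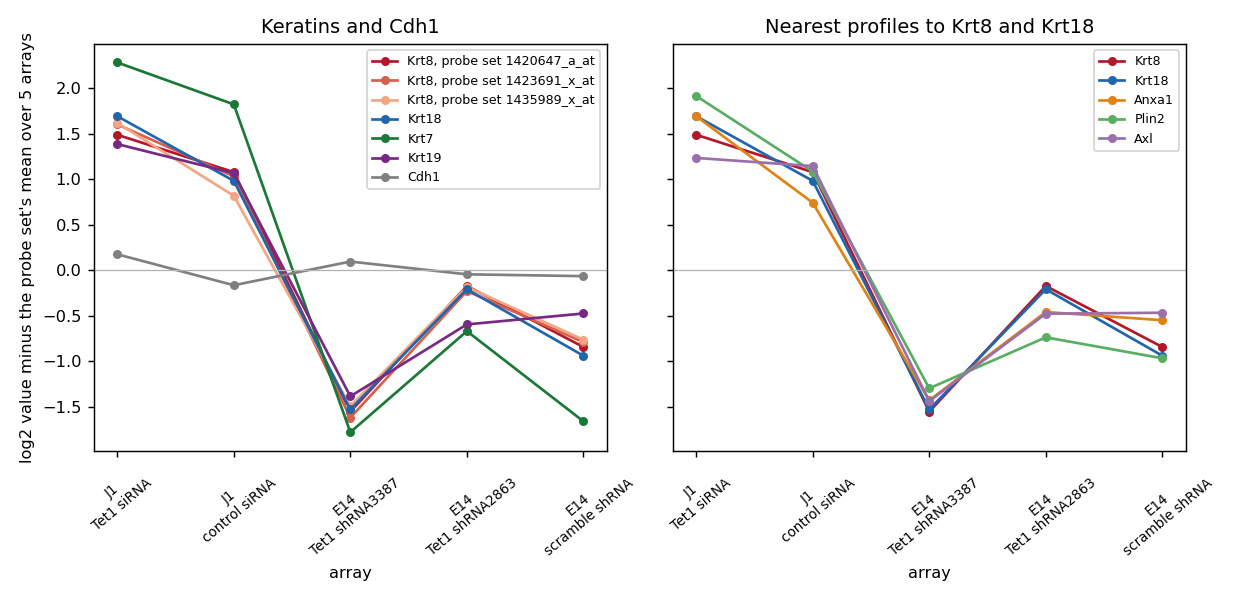
Log2 value of each probe set minus its mean over the 5 arrays (y axis) by array (x axis), for the keratins and Cdh1 on the left and for Krt8, Krt18 and their nearest genes on the right. The 3 Krt8 probe sets and Krt18 follow each other on every array, Krt19 parts from them at shRNA2863, and Cdh1 stays flat; lines only join points of 1 probe set.

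Among other keratins and filament-linked genes, 16 of 26 were kept. Krt17, a keratin of stressed and appendage epithelium, read 3.79 with Tet1 siRNA and 5.03 with control siRNA in J1, and 3.69 to 3.92 in E14. It was the only one of the 16 with a 2-fold difference in a depletion, where 1.57% of all kept genes had one in J1. All Krt17 values except that of J1 control siRNA lie within 1 log2 unit of the filter level. The size of its difference is thus limited by background signal. Krt42 read 7.88 and 8.56 in J1 Tet1 siRNA and control, and 7.82, 7.76 and 8.03 with shRNA3387, shRNA2863 and scramble. The medians of the list were 0.02 in J1, -0.11 with shRNA3387 and -0.03 with shRNA2863, beside -0.01, -0.02 and -0.01 over all kept genes. All 16 were lower than scramble with shRNA3387 and with shRNA2863, where 56.9% and 55.1% of all kept genes were. The hairpins share that scramble array. Between the lines 1 gene of the 16 passed, where 14.2% of all kept genes did. This was Plec, which encodes the filament linker plectin, higher in J1 by 1.08 ± 0.16 (limma adjusted p = 0.0343).

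Desmosomes are the junctions to which keratin filaments attach, and 8 of 9 listed genes were kept. With Tet1 siRNA in J1, 7 of these 8 were higher, where 45.5% of all kept genes were. Their median was 0.46, beside -0.01 over all kept genes. The desmosomal cadherins Dsc2 and Dsg2 differed by 1.36 and 0.88, desmoplakin (Dsp), which ties keratins to the plaque, by 0.68, and plakophilin 3 (Pkp3) by 0.32. With shRNA3387 the median was -0.27, and with shRNA2863 it was 0.07. Dsp differed by -0.14 and 0.64 and Pkp3 by -0.96 and -0.01 with shRNA3387 and shRNA2863. Between the lines 0 of the 8 passed in limma, where 14.2% of all kept genes did. Dsc2 had 1.39 ± 0.33 (limma adjusted p = 0.0748).

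The 3 catenins listed with E-cadherin had differences of at most 0.30 in size under depletion. Ctnnb1 (beta-catenin), which links cadherins to alpha-catenin and also carries Wnt signals, differed by 0.02, 0.01 and 0.02 with J1 Tet1 siRNA, shRNA3387 and shRNA2863, and Ctnna1 (alpha-catenin) by 0.26, -0.03 and -0.05. Ctnnd1 (p120-catenin), which holds cadherins at the membrane, differed by -0.01, 0.04 and -0.30. Jup (plakoglobin), a catenin of both adherens junctions and desmosomes, was counted with the adherens junction genes only. It was lower in all 3 depletions, by -0.35, -0.47 and -0.59 on the same arrays. At least 2-fold differences were found in 1.57%, 1.81% and 1.2% of all kept genes with J1 Tet1 siRNA, shRNA3387 and shRNA2863. Of 23 kept adherens junction and cadherin genes, 0 were 2-fold different in any depletion. Between the lines 3 passed, all higher in J1 (7.80% of all kept genes were): Ctnnd1 by 0.99 ± 0.15, the nectin Nectin3 by 0.90 ± 0.15 and Ctnnb1 by 0.44 ± 0.04 (SE; limma adjusted p = 0.0345, 0.0389 and 0.0183). N-cadherin (Cdh2) read 5.29 and 5.97 in J1 Tet1 siRNA and control, and 5.95, 6.17 and 5.82 with shRNA3387, shRNA2863 and scramble.

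Of 29 kept tight junction genes besides the 3 claudins above, 7 were higher in J1 than in E14 by the line term and 0 lower, where 7.80% and 6.37% of all kept genes were. They were Cldn9 (1.56 ± 0.07), the scaffold Magi3 (1.20 ± 0.13), the adhesion molecule F11r (1.04 ± 0.09), the polarity genes Pard3 (1.02 ± 0.15) and Prkci (0.43 ± 0.06), the plaque protein cingulin (Cgn, 0.54 ± 0.09) and Tjp1, which encodes ZO-1 (0.38 ± 0.06), with limma adjusted p from 0.0153 to 0.0425. Depletion differences in the list were mixed. Marveld2 (tricellulin) differed by 0.77, 1.19 and 0.98 with J1 Tet1 siRNA, shRNA3387 and shRNA2863, Ocln (occludin) by 0.45, 0.89 and 0.33, and the adhesion molecule Jam2 by -1.25, -0.58 and 0.12.

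Other epithelial genes gave 3 of 32 higher in J1 by the line term and 2 lower, where 7.80% and 6.37% of all kept genes were. Higher were the calcium-binding protein Anxa2 (2.05 ± 0.21), the membrane protease Prss8 (2.0 ± 0.17) and Sfn (1.29 ± 0.24), and lower were the transcription factor Klf4 (-2.19 ± 0.21) and Mal2 (-1.66 ± 0.26; SE, limma adjusted p from 0.0183 to 0.0479 over the 5). Lgals3, a galectin, had the signs of Krt19 in the depletions, with differences of 1.07 in J1, -1.06 with shRNA3387 and -0.30 with shRNA2863. Epcam, an epithelial adhesion molecule abundant in stem cells, read 10.78 and 10.60 in J1 Tet1 siRNA and control, and 10.91, 10.83 and 10.70 with shRNA3387, shRNA2863 and scramble. Like Cdh1 it overlapped between the lines.

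Of 14 kept mesenchymal genes, 1 passed between the lines, where 14.2% of all kept genes did. It was the matrix protein Sparc, higher in J1 by 1.86 ± 0.13 (limma adjusted p = 0.017). Vim (vimentin), the filament protein of mesenchymal cells, differed by 0.53, -0.32 and -0.37 with J1 Tet1 siRNA, shRNA3387 and shRNA2863. It was thus higher with Tet1 siRNA in J1, as Krt7, Krt8, Krt18 and Krt19 were. The repressors of E-cadherin, Snai1 and Zeb1, differed by 0.20, -0.13 and 0.64 and by -0.39, -0.22 and 0.00. Snai1 read 3.42 to 4.55 over the arrays, close to the filter level.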

How the data were processed

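The deposited table holds 1 value per probe set on a log2 scale for each of 5 arrays. The scale was inferred from the values. How the authors summarised and normalised these log2 values is not given in the sources used here. Values were used as deposited. Gene names came from the platform annotation (34958 probe sets with 1 symbol), updated through Entrez identifiers to RefSeq symbols of GRCm38.p6. Groups came from the labels. The brightest probe set stood for a gene, and 13619 genes lay above the 40th percentile on 1 or more arrays, control probe sets aside.

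Tests were two-sided and run in limma 3.58.1 (R 4.3.3), with the variance moderated along a mean trend and Benjamini-Hochberg adjustment over all kept genes at 0.05. One fit had line and Tet1 terms (2 residual degrees of freedom), the other 4 means (1 residual degree of freedom, from the hairpin pair, with lone arrays assumed to vary likewise). Fits were tested on simulated data. The members and lists were chosen with earlier results of these data known. Besides the members, genes were named as junction and filament partners, as up to 4 of each list with the largest depletion and the largest line difference, as the 3 nearest profiles of the 3 widest-ranging members, or as list members that passed; this last ground, and the defining lineage markers, were added after values were seen. The number of arrays limits the precision. Alternatives were quantile normalization, median centring, other filters, the median over probe sets, all probe sets, no trend, no line term, a 1.5-fold threshold and leaving out each array.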

Additional observations from a re-analysis of the deposited data

Results flagged for a closer look

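Krt19 and Cldn4 had a higher value with Tet1 siRNA in J1 and lower values with both hairpins in E14, each against its own control. The effect in J1 minus the mean effect in E14 was 0.835 for Krt19 (0.32 in J1, -0.91 with shRNA3387 and -0.12 with shRNA2863) and 1.005 for Cldn4 (0.61, -0.65 and -0.14). The test of this difference in limma did not pass for either (adjusted p = 0.68 and 0.486). The pattern of signs was present in 19.6% of all kept genes, and the hairpins share 1 scramble array.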

How the results depend on the processing

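No paired analysis was possible because each group is 1 array and the labels give no replicate numbers. Of 602 single-gene values under alternatives, 557 counted as kept. Fit estimates had to keep direction and side of the threshold. Differences between arrays had to move by less than 1 residual SD. Another 24 counted as reversed, where a difference between arrays could count only if at least 2-fold in the main setting. Smaller differences that changed sign, as Cdh3 with shRNA3387 did from 0.71 to -0.105, are not among the 24. Filters and trend cannot alter an estimate or difference, nor can the median over probe sets for a gene with 1 probe set. Part of the agreement was thus fixed in advance. At 1.5-fold either way the number of the 10 genes past the threshold was 3 in J1 (9% of all kept genes) and 5 with shRNA3387 (8.75%). It was 3 with shRNA2863 (6.89%) and 5 between the hairpins (5.65%). After quantile normalization and after median centring, 1 gene reached 2-fold with shRNA2863. The line term passed for 4 of the 10 after quantile normalization, for 5 with the filter at the 60th percentile, where fewer genes were tested, and for 0 with any array left out, where the residual degrees of freedom also fell. Of all genes it passed for 2383 of 13619 after quantile normalization and 2598 of 10387 with that filter. In the main setting 1930 of 13619 passed. In the test of Tet1 depletion 0 of the 10 passed under every alternative with all 5 arrays, where 0 of all genes tested passed either. Without the line term its estimates turned to -0.137 for Krt7, -0.197 for Krt8, -0.037 for Krt18 and -0.137 for Cldn4. Leaving out 1 array, they ran from -0.15 to 0.54 for Krt8, from -0.515 to 0.32 for Krt19, from -0.395 to 0.61 for Cldn4, from -0.31 to 0.355 for Cdh3 and from -0.005 to 0.045 for Tspan8, and the line estimate of Cdh1 ran from -0.1 to 0.15. For Krt19, Cldn4 and Cdh3 the ends of the Tet1 ranges are by construction the J1 difference and the mean hairpin effect in E14. With the median over probe sets, Cdh3 turned to -0.221 over both lines, to -0.278 in E14 and to 0.132 in the difference between lines. Quantile normalization turned Tspan8 to 0.001 between lines and Cldn6 to -0.026 in E14. Median centring turned Krt8 to 0.025 in E14 and Krt7 to -0.06 in the difference between lines. For these reversals the cause was not tested. Signal near background limits Tspan8, the second Cdh3 probe set and Krt7 in E14.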
